A study of Mus musculus with 26 samples.

Results

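The epidermal growth factor (EGF) receptor family and its ligands were followed through mouse RPE/choroid, the retinal pigment epithelium together with the vascular and stromal layer beneath it. The 9 members were chosen by name, with earlier results of these data known: the receptors *Egfr*, *Erbb2* and *Erbb3* and the ligands *Hbegf*, *Areg*, *Ereg*, *Btc*, *Nrg1* and *Tgfa*. Their levels by cell cluster and their bulk means therefore describe the members and support no selection of them. All 9 had a row among the 17623 genes of each bulk table, and 8 of them among the 16426 genes of the single-cell tables. *Ereg* was not analysed here in single cells.

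The study asked which cells make up the adult RPE/choroid and what endothelial Indian hedgehog (*Ihh*) does there. Single-cell RNAseq covered 1 library per strain, B6129PF1/J and C57BL/6J, each from 3-month-old mice and pooled from a male and a female eye, and the authors sorted the cells into 13 clusters. Bulk RNAseq compared RPE/choroid tissue of 3 Ihh+/+ and 3 IhhiΔEC/iΔEC mice, all C57BL/6J, 6 months old and given tamoxifen 12 weeks earlier. Both genotypes carried the Cdh5-CreERT2 transgene, in which the Cdh5 promoter drives Cre in endothelial cells (ECs), and Cdh5 is active in ECs of all vessels, so the deletion was not limited to the choroid. Bulk RNAseq also compared 3 cultures of GLI1+ cells given DMSO with 3 given 100 nM SAG, a small-molecule Hedgehog agonist, for 24 h. These cells were GFP+ cells sorted from RPE/choroid pooled over Gli1GFP/+ females (labelled SWR/J), expanded in culture and starved before treatment. ECs of 4 other vascular beds (heart, liver, lung and neural retina, 3 libraries per bed) came from B6129PF1/J mice 1 month old.

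EGF receptors are tyrosine kinases at the cell surface that pair when a ligand binds. EGFR binds EGF, TGFα, amphiregulin, betacellulin, epiregulin and HB-EGF, whereas ERBB3 binds neuregulins and signals through a partner such as ERBB2, which has no known ligand of its own. The ligands are made as membrane-anchored precursors and are shed by proteases such as ADAM10 and ADAM17. Schwann cells are known to need neuregulin signalling through ERBB2 and ERBB3.

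In the mouse genome (GRCm38) *Ereg*, *Areg* and *Btc* lay side by side on chromosome 5, within 328 kb between positions 91074622 and 91402994. *Egfr* was at chr11:16752203-16918158 and *Tgfa* at chr6:86195223-86275719, both on the plus strand. A promoter sequence was at hand for 5 of the 9 members. The 250 bases before the start site are shown for *Egfr*, the receptor whose mean differed most between the *Ihh* genotypes among the 6 members with 1 FPKM or more there, and for *Btc* and *Tgfa*, the EGFR ligands found in RPE cells. They are RefSeq sequences of GRCm38.p6, read 5′ to 3′ along the gene's strand, and capitals mark motif matches.

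Egfr, chr11:16751953-16752202, plus strand: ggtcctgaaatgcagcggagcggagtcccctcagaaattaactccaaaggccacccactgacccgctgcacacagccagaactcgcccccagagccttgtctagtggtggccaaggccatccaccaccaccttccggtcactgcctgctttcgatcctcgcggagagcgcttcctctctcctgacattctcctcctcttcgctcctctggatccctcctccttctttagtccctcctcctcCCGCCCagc
Btc, chr5:91402995-91403244, minus strand: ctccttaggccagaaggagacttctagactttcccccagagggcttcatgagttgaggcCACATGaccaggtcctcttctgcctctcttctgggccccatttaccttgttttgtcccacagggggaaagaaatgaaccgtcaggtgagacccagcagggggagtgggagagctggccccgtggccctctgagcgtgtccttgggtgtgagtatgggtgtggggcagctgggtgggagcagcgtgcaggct
Tgfa, chr6:86194972-86195221, plus strand: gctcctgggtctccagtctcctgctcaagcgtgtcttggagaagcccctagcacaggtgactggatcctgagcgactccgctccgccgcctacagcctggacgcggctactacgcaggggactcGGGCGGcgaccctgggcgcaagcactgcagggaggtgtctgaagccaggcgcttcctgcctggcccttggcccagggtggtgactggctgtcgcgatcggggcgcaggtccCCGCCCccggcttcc

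Both strands of each window were searched for 5 motifs that do not overlap one another here. The GC box GGGCGG was found once upstream of *Egfr* and at 2 places upstream of *Tgfa*, and 32.7% of all 32851 promoters of this length held it. The E-box CATGTG was found once upstream of *Btc*, and 12.3% of promoters held it. The letters of the GLI motif GACCACCCA, held by 0.225% of promoters, and of the AP-1 motif TGANTCA and the OTX motif TAATCC, held by 6.75% and 6.25%, were in none of these 3 windows.

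The B6129PF1/J library held 3637 cells with a median of 3881 UMIs, and the C57BL/6J library 3928 cells with a median of 3174.5 UMIs. The 2 libraries shared 22 cell barcodes of 7565. Levels are the UMIs (counted molecules) of a gene summed over a cluster, per 10,000 UMIs of all genes. Their exact 95% Poisson intervals, like the exact 95% binomial intervals of shares, cover counting error only. With 1 library per strain there is no replicate error and no test. The clusters matched their names: summed RPE markers reached at least 1143 per 10,000 in cluster 1 and at most 21.2 elsewhere, and EC markers at least 71.5 in clusters 2 to 4 and at most 7.82 elsewhere.

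*Egfr* mRNA was found mainly in stromal cells. The 4 stromal clusters held 94.6% of its 224 UMIs in B6129PF1/J (interval 90.8% to 97.2%) and 91.9% of its 160 UMIs in C57BL/6J (86.5% to 95.6%), while they made up 47.7% and 44.8% of the cells. The level was highest in stromal cluster 7, at 0.871 UMIs per 10,000 in B6129PF1/J (0.684 to 1.09) and 0.817 in C57BL/6J (0.602 to 1.08). Clusters 8 and 5 followed, with 0.348 and 0.305 in B6129PF1/J and 0.293 and 0.264 in C57BL/6J. These neighbours had overlapping intervals, and cluster 7 stood above both in each library. Stromal cluster 6 was lower, at 0.0930 and 0.0631.

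An *Egfr* UMI was seen in 29.2% of cluster 7 cells in B6129PF1/J and 27.2% in C57BL/6J. With every cell thinned to 1700 UMIs, these shares were 10.8% and 15.8%. RPE cells had 0 *Egfr* UMIs in B6129PF1/J, where 3 counts would be a level of 0.01, and 1 UMI in C57BL/6J. The 3 EC clusters together had 4 *Egfr* UMIs in each library.

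Stromal cells with a UMI of *Gli1*, the Hedgehog target that marks the GLI1+ cells, also had *Egfr* UMIs. Over clusters 5 to 8 their *Egfr* level was 0.354 in B6129PF1/J (0.231 to 0.518) and 0.353 in C57BL/6J (0.209 to 0.557). Stromal cells without a *Gli1* UMI had 0.312 (0.269 to 0.360) and 0.247 (0.206 to 0.293), so the intervals overlapped. The cells with a *Gli1* UMI were deeper, with a median of 4000 against 3578 UMIs and 3346 against 2973 UMIs.

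*Erbb3*, the neuregulin receptor, was found mainly in Schwann cells. Clusters 12 and 13 held 84.5% of its 58 UMIs in B6129PF1/J (72.6% to 92.7%) and 89.8% of its 59 UMIs in C57BL/6J (79.2% to 96.2%), from 3.79% and 3.92% of the cells. Nonmyelinating Schwann cells (cluster 12) had 1.31 UMIs per 10,000 (0.934 to 1.78) and 1.80 (1.33 to 2.38). Myelinating Schwann cells (cluster 13) had 0.837 from 9 UMIs, whose interval overlapped that of cluster 12, and 0.334 from 4 UMIs, whose interval lay below it. Melanocytes, like Schwann cells derived from the neural crest, had 3 *Erbb3* UMIs over 16 cells and 2 over 26 cells. All 3 EC clusters together held 0 and 1 *Erbb3* UMI.

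*Erbb2*, the shared partner receptor, was sparse and spread over many cell types, with 104 UMIs in B6129PF1/J and 60 in C57BL/6J. Its highest level in clusters of at least 50 cells was in nonmyelinating Schwann cells, at 0.163 (0.0531 to 0.381) and 0.110 (0.0227 to 0.322). These levels overlapped those of Kdr-med ECs (0.133 and 0.0445) and of stromal cluster 5 (0.0787 and 0.0578). Kdr-med ECs had 32 UMIs in B6129PF1/J against 12 in C57BL/6J, a ratio of levels of 2.98 (1.49 to 6.35). RPE cells had 2 and 0 *Erbb2* UMIs. *Erbb4*, the remaining receptor, had 3 UMIs in B6129PF1/J and 0 in C57BL/6J. *Erbb2* and *Erbb3* UMIs were seen together in 2 of 138 Schwann cells in B6129PF1/J and in 0 of 154 in C57BL/6J. With *Erbb2* UMIs in only 6 and 5 of these cells, co-expression of the pair was not measurable at this depth.

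**Figure D1:**
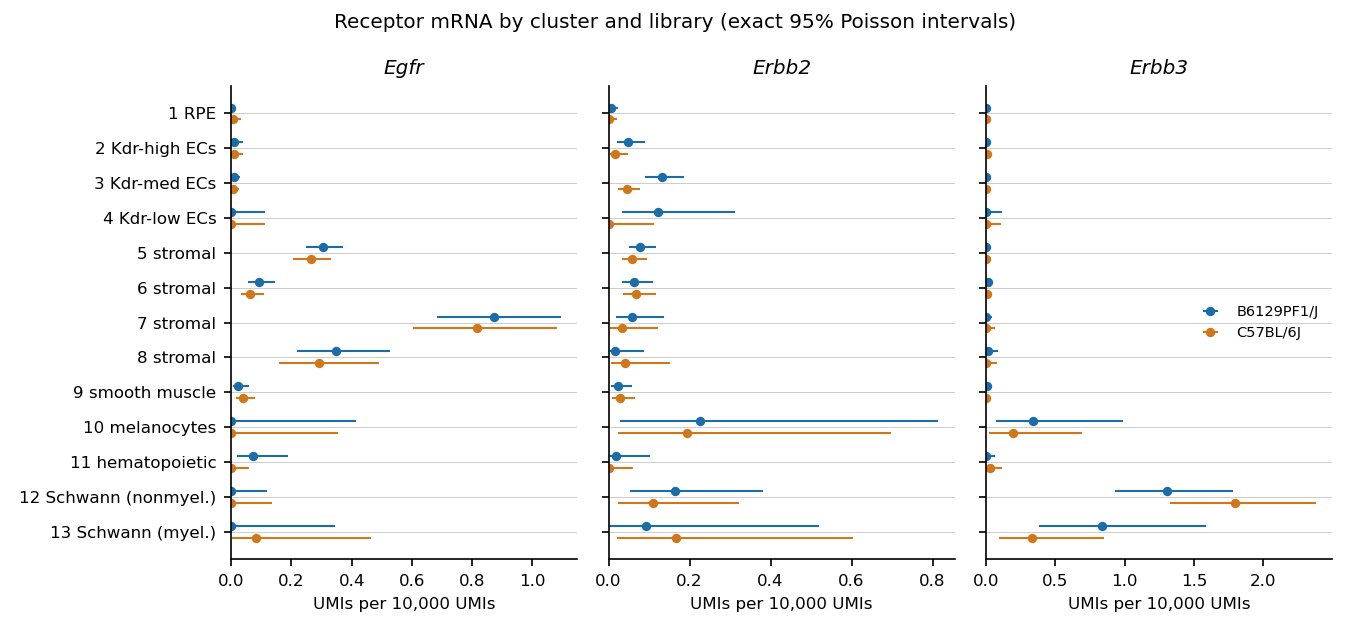
Level of *Egfr*, *Erbb2* and *Erbb3* (UMIs per 10,000 UMIs, x axis, a scale for each gene) in the 13 clusters (y axis). Points are summed levels of the B6129PF1/J library (blue) and the C57BL/6J library (orange), and bars are exact 95% Poisson intervals. *Egfr* peaks in stromal cluster 7 at 0.871 and 0.817 and *Erbb3* in Schwann cluster 12 at 1.31 and 1.80, while *Erbb2* has no cluster that stands clear of the others.

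*Hbegf*, which encodes HB-EGF, was found mainly in endothelium. ECs held 79.3% of its 5660 UMIs in B6129PF1/J (78.2% to 80.4%) and 78.4% of its 5137 UMIs in C57BL/6J (77.3% to 79.5%), from 23.7% and 26.1% of the cells. Kdr-high ECs (cluster 2, which the study assigns to the choriocapillaris, the capillary bed next to the RPE) had 12.1 UMIs per 10,000 (11.6 to 12.6) and 10.6 (10.2 to 11.1). Kdr-med ECs had 7.98 (7.63 to 8.35) and 7.19 (6.88 to 7.52), and Kdr-low ECs 8.01 (7.07 to 9.04) and 4.56 (3.86 to 5.35). Kdr-high ECs were thus above both other EC clusters in each library. Kdr-med and Kdr-low ECs overlapped in B6129PF1/J but not in C57BL/6J.

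Outside the endothelium, Schwann cells had the highest *Hbegf* levels, at 6.73 and 4.55 in the nonmyelinating and 3.72 and 2.75 in the myelinating cluster. The nonmyelinating level overlapped that of Kdr-low ECs in both libraries. Smooth muscle cells had 2.13 (1.92 to 2.36) and 2.06 (1.85 to 2.28), the latter overlapping the myelinating cluster, and stromal cluster 6 had 1.1 and 1.47. Leaving out Schwann cells with a UMI of any of 6 EC markers gave 6.63 and 4.73 in cluster 12. In cluster 13 it gave 1.83 and 2.64, so its B6129PF1/J level rested in part on the 5 of 30 cells that also carried an EC marker UMI. Hematopoietic cells (cluster 11) had 0.439 and 0.181, and 0.0723 and 0.0532 without cells carrying EC markers.

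RPE cells, which lie against the choriocapillaris, serve as the background for free RNA. An *Hbegf* UMI was seen in 3.69% of RPE cells in B6129PF1/J and 2.41% in C57BL/6J, at median depths of 5263 and 3406.5 UMIs. The shares in Kdr-high ECs were 93.8% (90.8% to 96.0%) and 83.6% (79.6% to 87.1%), at median depths of 4232.5 and 3460 UMIs. Thinned to 1700 UMIs per cell, Kdr-high ECs still had an *Hbegf* UMI in 79.2% and 69.2% of cells, against 1.23% and 0.267% of RPE cells.

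*Hbegf* is itself known to respond quickly to stress and to growth factors, so its level was set beside 10 immediate-early and heat-shock genes (*Fos*, *Fosb*, *Jun*, *Junb*, *Egr1*, *Atf3*, *Ier2*, *Dusp1*, *Hspa1a* and *Hspa1b*). The cells of each cluster were ordered by the share of their UMIs on these genes and cut into 3 groups of equal size. In each EC cluster of both libraries, the lowest group had the least *Hbegf*. In Kdr-high ECs the level was 7.73 in the lowest group, 14.1 in the middle and 14 in the highest group in B6129PF1/J. The C57BL/6J groups had 3.9, 10.9 and 14.7.

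Kdr-med ECs had 4.83, 9.95 and 8.98 in B6129PF1/J and 1.39, 8.23 and 9.49 in C57BL/6J. In each of the 3 groups Kdr-high ECs were above Kdr-med ECs in both libraries. Kdr-low ECs spanned a wide range, from 1.46 in the lowest to 12.8 in the highest group in B6129PF1/J and from 0.784 to 7.53 in C57BL/6J. Smooth muscle cells had 1.76 and 2.53 in the lowest and highest group in B6129PF1/J, and 1.57 and 2.52 in C57BL/6J. In nonmyelinating Schwann cells the same groups had 6.75 and 7.77, and 3.18 and 5.80, with overlapping intervals in both libraries.

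Depth moved with the groups as well: in Kdr-med ECs of C57BL/6J the lowest group had a median of 2551 UMIs per cell and the highest 4597. The part of the early genes and of depth in the *Hbegf* level was not tested.

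**Figure D2:**
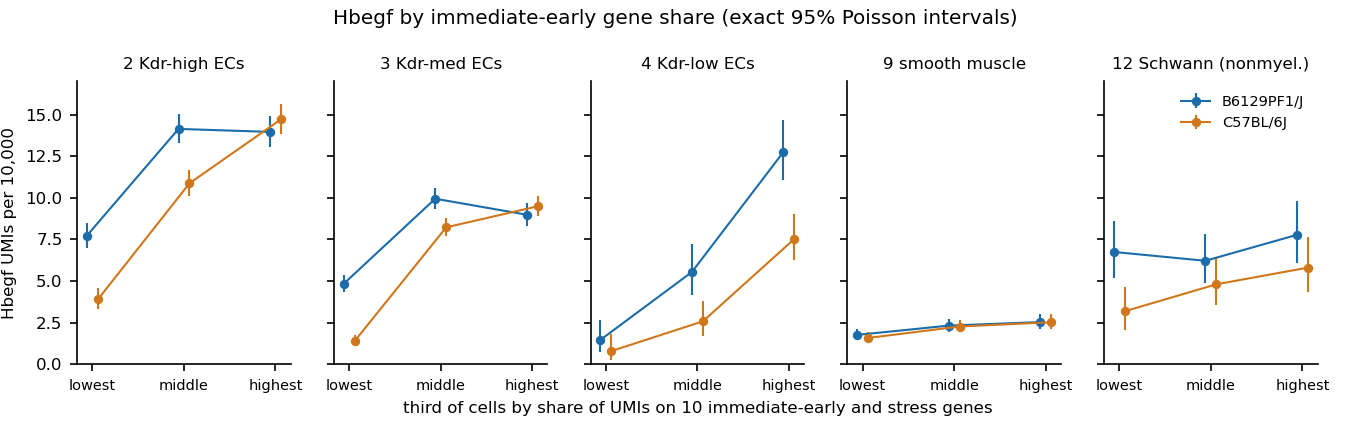
*Hbegf* level (UMIs per 10,000, y axis from 0) in the lowest, middle and highest group of cells of 5 clusters, ordered by the share of each cell's UMIs on 10 immediate-early and stress genes (x axis). UMIs of these 10 genes are left out of the total that the level is taken over. Points are the B6129PF1/J (blue) and C57BL/6J (orange) libraries, and bars are exact 95% Poisson intervals. The middle group is above the lowest in all 3 EC clusters, for example 8.23 against 1.39 in C57BL/6J Kdr-med ECs, and smooth muscle cells span 1.57 to 2.53 over both libraries.

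The genes whose pattern over the 26 levels (13 clusters in 2 libraries, on log2(level + 0.1)) was most like that of *Hbegf* were *Akap2* (Pearson's r = 0.90), *Emp2* (0.89) and *Klf7* (0.89), among 7563 genes with at least 200 UMIs in each library. *Egfr* and *Erbb3* had fewer UMIs. With a minimum of 50 UMIs for the member, chosen after seeing the data, the nearest were *Medag* (0.95), *Gdf10* (0.94) and *Tspan11* (0.93) for *Egfr*, and *Prnp* (0.92) and *Gpr37l1* (0.91) were among the nearest for *Erbb3*. The 26 levels share 2 libraries and their depths, and no p is given.

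*Btc* (betacellulin) was found mainly in RPE cells, and *Tgfa* (TGFα) in RPE cells and Kdr-med ECs. *Btc* had 38 of its 47 UMIs in RPE cells in B6129PF1/J and 29 of its 39 in C57BL/6J, a share of 80.9% (66.7% to 90.9%) and 74.4% (57.9% to 87.0%). Its RPE level was 0.127 (0.0897 to 0.174) and 0.166 (0.111 to 0.238), and it had 0 UMIs in all 3 EC clusters. The *Tgfa* level was similar in RPE cells, at 0.153 (0.112 to 0.205) and 0.126 (0.0789 to 0.191), and in Kdr-med ECs, at 0.116 (0.0771 to 0.168) and 0.141 (0.0998 to 0.194), with overlapping intervals. In Kdr-high ECs it was lower, at 0.0262 (0.00852 to 0.0612) and 0.0110 (0.00133 to 0.0396), below Kdr-med ECs in both libraries. This order of the 2 EC clusters was the opposite of that of *Hbegf*.

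The other ligands were barely read. *Areg* (amphiregulin) had 4 UMIs in each library, 3 and 2 of them in hematopoietic cells. In B6129PF1/J the 3 hematopoietic UMIs lay in 3 cells, 2 of which carried at least 3 UMIs of macrophage genes, and in C57BL/6J both lay in 1 cell with B cell genes. *Nrg1* (neuregulin 1) had 4 and 10 UMIs. Kdr-high ECs held 3 and 5 of them, and a single C57BL/6J hematopoietic cell held another 4. *Nrg2* had 11 and 13 UMIs, 3 and 7 of them in stromal cluster 5, and *Egf* had 8 and 3. *Epgn*, *Nrg3* and *Nrg4* were not analysed here in single cells. Nonmyelinating Schwann cells, the cluster highest in *Erbb3*, had 0 *Nrg1* UMIs in both libraries, where 3 counts would be a level of 0.0981 in B6129PF1/J.

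**Figure D3:**
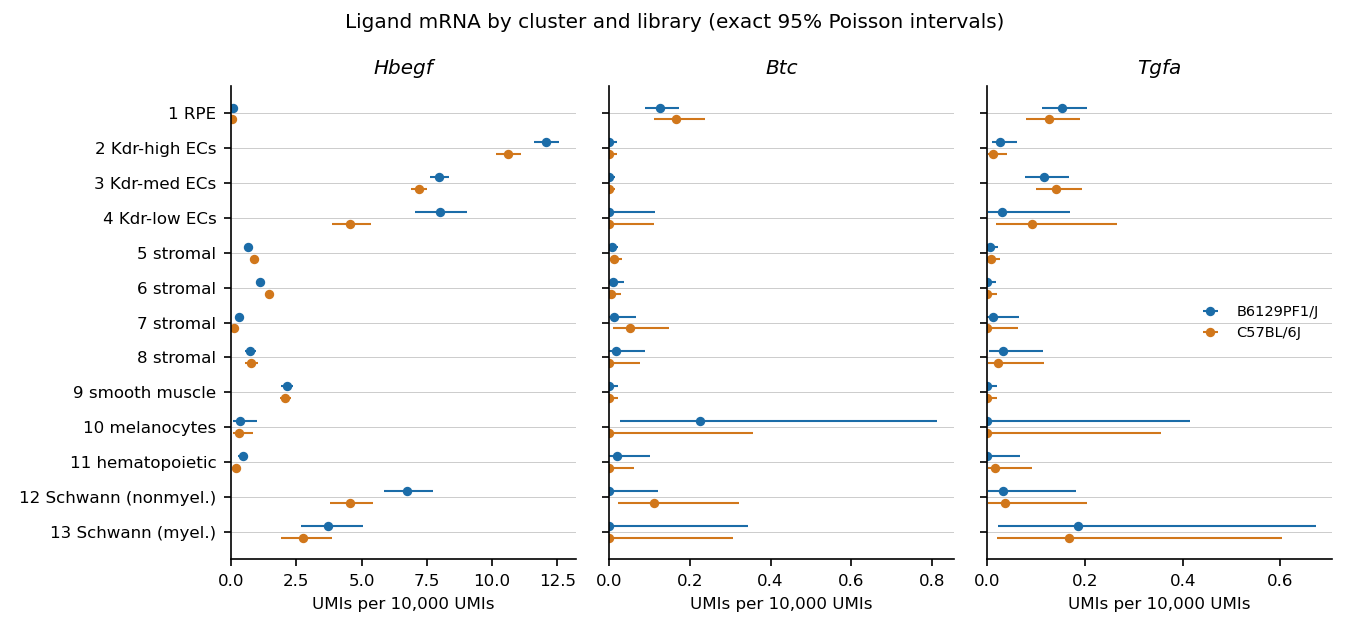
Level of *Hbegf*, *Btc* and *Tgfa* (UMIs per 10,000 UMIs, x axis, a scale for each gene) in the 13 clusters (y axis), with exact 95% Poisson intervals for the B6129PF1/J (blue) and C57BL/6J (orange) libraries. *Hbegf* is highest in Kdr-high ECs, at 12.1 and 10.6, *Btc* reaches 0.127 and 0.166 in RPE cells, and *Tgfa* is read in RPE cells and in Kdr-med ECs. The wide bars of clusters 10 and 13 rest on at most 46 cells each.

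The sheddases were read widely. *Adam10* was at 0.677 and 0.498 UMIs per 10,000 in Kdr-high ECs, and *Adam17* at 0.342 and 0.272 in stromal cluster 7. Of 52 pathway genes, 41 were highest in the same cell class in both libraries when clusters of under 50 cells were left out. ECs were the highest class for 6 of 13 inhibitors, 8 of 20 transducers, 3 of 9 shedding genes and 2 of 10 ERK targets. No share over all genes was computed for any of these counts, so they do not show that the pathway favours ECs. Among the inhibitors, *Spry1* and *Spry4*, feedback antagonists of receptor tyrosine kinases, were highest in Kdr-high ECs, at 1.62 and 0.913 in B6129PF1/J. *Errfi1*, which encodes an inhibitor that binds activated EGFR, was highest in smooth muscle cells, at 4.43 and 2.61. *Dusp5*, an ERK phosphatase, was highest in Kdr-high ECs, at 1.04 and 0.613.

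Of the 8 members, 6 had the same highest cluster in both strain libraries. For *Erbb2* (cluster 10), *Tgfa* (cluster 13) and *Areg* (cluster 11) that peak rested on few UMIs. Its interval overlapped that of the next cluster in both libraries. The other members that agreed were *Egfr*, *Erbb3* and *Hbegf*. *Hbegf* was 1.14 times higher in B6129PF1/J in Kdr-high ECs (1.07 to 1.21), 1.75 times in Kdr-low ECs (1.43 to 2.16) and 1.48 times in nonmyelinating Schwann cells (1.18 to 1.86). In stromal clusters 5 and 6 it was lower in B6129PF1/J, with ratios of 0.744 (0.614 to 0.901) and 0.751 (0.627 to 0.898). *Egfr* in cluster 7 had a ratio of 1.07 (0.732 to 1.57) and *Erbb3* in cluster 12 of 0.727 (0.467 to 1.13). Strain, library and depth cannot be told apart here.

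A table of genes enriched in choroidal ECs, held to a fold of at least 5 over every other EC type, listed 99 genes. *Hbegf* was the only member among them, with a mean of 85.7 FPKM in choroidal ECs. The other means were 12.6 in neural retina, 9.24 in lung, 8.70 in heart and 5.69 in liver ECs, so that the choroidal mean was 6.79 to 15.1 times the others. *Rhbdl2*, a rhomboid protease gene of the shedding list, was also listed, at 5.22 FPKM in choroidal and 0.989 in neural retina ECs. The rows were selected by the authors on this difference, so it is a description. The choroidal libraries behind the mean are not among the samples of this series and were not analysed here. The authors state that bulk data of choroidal ECs had been deposited before, with an earlier study. The part of that separate set of libraries in the difference was not tested.

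Bulk tables gave 1 mean FPKM (fragments per length of transcript and per sequenced total) per group, the authors' mean of 3 libraries, with no value of a single library. No replicate error or depth can be given for them. No test was run here, and the authors' own adjusted p values, given beside the means, were left out. A gene was counted as different when log2(FPKM + 0.1) differed by at least 1.5-fold with 1 FPKM or more in the higher group. In the *Ihh* tissue the deletion showed in the means: *Ihh* was 1.53 FPKM in Ihh+/+ and 0.454 in IhhiΔEC/iΔEC mice, and its target *Gli1* 9.40 and 3.15.

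*Egfr* was the member that differed after endothelial *Ihh* deletion. Its mean was 4.73 FPKM in Ihh+/+ and 2.35 in IhhiΔEC/iΔEC tissue, 2.01 times lower in the mutants, a log2 ratio of -0.98. It was the only 1 of 6 members with at least 1 FPKM to pass 1.5-fold in either direction. Of all 11411 genes with that level, 2.41% were lower and 2.02% higher. In bulk tissue, fewer cells of a type and less RNA per cell cannot be told apart. The mutant means also had less of the summed rod markers (32.1 against 85.9 FPKM) and more of the keratin gene *Krt12* (16.4 against 0.861 FPKM).

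The 5 stromal markers were also lower in the mutants, 3 of them past 1.5-fold, beside 2.41% of all genes tested. They summed to 636 FPKM in Ihh+/+ and 411 in IhhiΔEC/iΔEC tissue. Their ratios were 0.524 for *Lum*, 0.577 for *Col1a1*, 0.651 for *Pdgfra*, 0.674 for *Dcn* and 0.832 for *Pdgfrb*, beside 0.497 for *Egfr*. With 1 mean per group and no error, the order of these ratios carries no weight. Of the 10 genes whose cluster pattern was most like that of *Egfr*, 9 were measured, *Dcn* among them, and 1 of these, *Tmem119*, was lower by at least 1.5-fold. The median log2 ratio of the 9 was -0.39, against -0.04 over all genes tested, and *Medag*, *Gdf10* and *Mfap4* had log2 ratios of 0.45, 0.33 and 0.29. The part of stromal cell number, or of other ocular tissue, in the *Egfr* difference was not tested.

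The other receptors differed little. *Erbb2* had means of 2.39 FPKM in Ihh+/+ and 2.21 in IhhiΔEC/iΔEC tissue, and *Erbb3* 1.62 and 1.54. Of the Schwann cell markers, 0 of 5 tested were past 1.5-fold, beside 2.41% lower and 2.02% higher of all genes tested. *Erbb4* was at 0.0357 and 0.0823 FPKM.

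Among the ligands, *Hbegf* was higher in the mutants, at 3.85 against 3.00 FPKM, a ratio of 1.28 that did not reach 1.5-fold. EC markers, which mark its main source in the single-cell data, had a summed level of 174 FPKM in the mutants and 207 in Ihh+/+ mice. The part of EC number, or of other ocular tissue, in the *Hbegf* difference was not tested. *Tgfa* (6.63 and 6.88) and *Btc* (1.79 and 1.89) had nearly the same means in both genotypes. In these tissue means *Tgfa* was the most abundant ligand of the family per length of transcript. The single-cell libraries had the opposite order, with 88 and 72 *Tgfa* UMIs against 5660 and 5137 *Hbegf* UMIs in B6129PF1/J and C57BL/6J. What lies behind this difference between whole tissue and sorted cells was not tested.

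*Areg* and *Ereg*, neighbours on chromosome 5, were both below 1 FPKM. *Areg* was listed at 0 in Ihh+/+ and at 0.363 FPKM in IhhiΔEC/iΔEC tissue, and *Ereg* at 0.00500 and 0.131. Keratin genes of the surface epithelium of the eye were higher beside them, *Krt12* at 0.861 FPKM in Ihh+/+ and 16.4 in mutant tissue and *Krt14* at 0.00667 and 4.28. *Krt5*, the third gene of that list, was not analysed here. The lens genes *Cryaa* and *Cryba1* were at 0.329 and 0.163 FPKM in the mutants and at 0.0230 and 0 in Ihh+/+ mice. The rod markers, 5 of 5, were lower past 1.5-fold in the mutants, beside 2.41% of all genes tested, with sums of 32.1 against 85.9 FPKM. The part of other ocular tissue in the means of these ligands was not tested.

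The neuregulin genes and the remaining EGFR ligands were low in both genotypes. *Nrg1* was at 0.0177 FPKM in Ihh+/+ and 0.0333 in mutant tissue, *Nrg2* at 0.219 in both and *Nrg4* at 0.209 and 0.168. *Egf* was at 0.232 and 0.352, *Epgn* at 0.0223 and 0.00700, and *Nrg3* at 0.00267 and listed at 0.

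**Figure D4:**
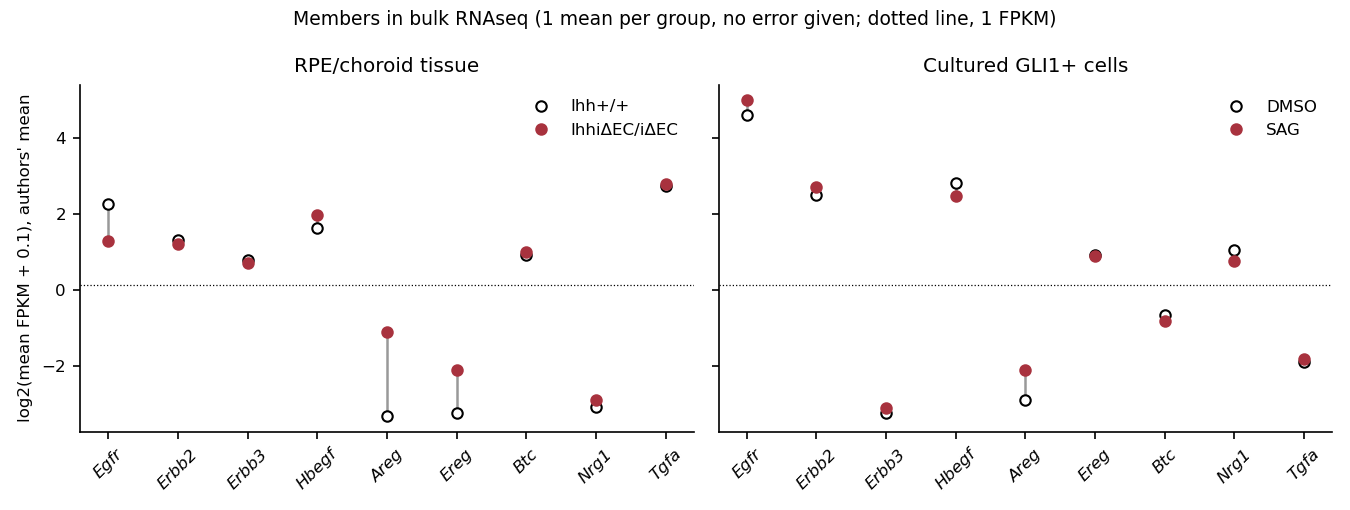
The authors' mean of each member on log2(FPKM + 0.1) (y axis) in RPE/choroid of Ihh+/+ (open) and IhhiΔEC/iΔEC mice (red, left) and in GLI1+ cells given DMSO (open) or SAG (red, right), with 1 mean per group and no error given. *Egfr* is 4.73 FPKM in Ihh+/+ and 2.35 in mutant tissue and 24.5 FPKM with DMSO and 32.0 with SAG, and *Areg* and *Ereg* stay under the dotted line at 1 FPKM in tissue.

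Downstream of the receptors, 3 of 49 pathway genes with at least 1 FPKM were higher and 1 was lower past 1.5-fold after *Ihh* deletion. Of all 11411 genes with that level, 2.02% were higher and 2.41% lower. The median log2 ratio of the pathway genes was -0.02. *Dusp5* had 0.298 FPKM in Ihh+/+ and 2.15 in mutant tissue, *Errfi1* 7.32 and 32.3, and *Spry4* 5.58 and 9.44. *Errfi1* and *Spry4* were the 2 of 13 listed inhibitors past the fold, with a median log2 ratio of -0.05 over the 13, and *Dusp5* is on the list of ERK targets. *Phlda1*, most abundant in stromal cluster 6, had 34.3 FPKM in Ihh+/+ and 17.8 in mutant tissue. None of the 7 shedding and 20 transducer genes tested passed the fold. These are the same tissue means in which keratin genes were higher and rod markers lower in the mutants. The part of other ocular tissue in the pathway differences was not tested.

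The immediate-early and stress genes differed as well, in both directions. Of 10, 5 were lower by 1.5-fold in the mutants, with *Fos* at 102 and 32.2 FPKM and *Fosb* at 19.6 and 2.27, and 1, *Atf3*, was higher, at 3.39 and 8.24. The shares over all 11411 genes tested were 2.41% lower and 2.02% higher. *Egr1*, which is on the list of ERK targets too, was at 103 and 112. Summed melanocyte markers were 2074 FPKM in Ihh+/+ and 1276 in mutant tissue.

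**Figure D5:**
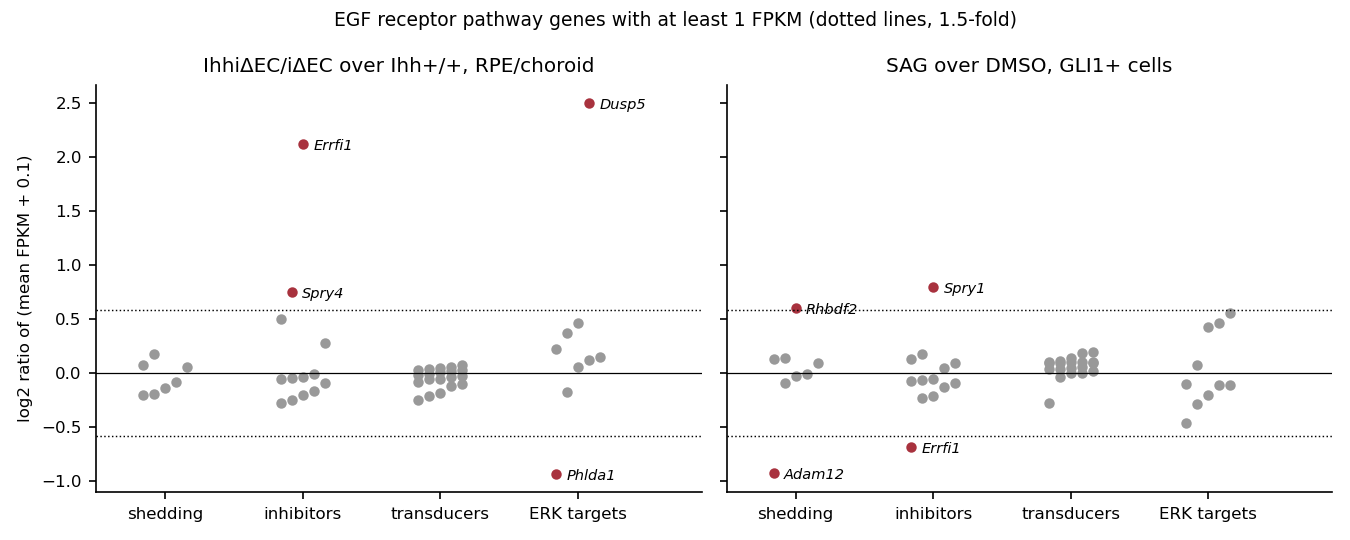
Log2 ratio of mean FPKM + 0.1 (y axis) for the pathway genes with at least 1 FPKM, 1 point per gene, by role (x axis), after *Ihh* deletion (left) and SAG (right). Dotted lines mark 1.5-fold, and genes past them are red and named. *Dusp5* at 2.50 and *Errfi1* at 2.13 stand apart after *Ihh* deletion, and *Errfi1* is on the lower side after SAG, at -0.69.

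GLI1+ cells, the stromal cells that receive the Hedgehog signal, expressed *Egfr* in culture, with a mean of 24.5 FPKM in DMSO. The Hedgehog targets were higher with SAG, *Gli1* at 0.0280 FPKM in DMSO and 3.65 in SAG and *Ptch1* at 1.13 and 10.1. None of the 5 members with at least 1 FPKM (*Egfr*, *Erbb2*, *Hbegf*, *Ereg* and *Nrg1*) passed 1.5-fold in either direction, while 1.3% of all 10325 genes tested were higher and 2.37% lower. *Egfr* had 32.0 FPKM in SAG, a ratio of 1.31 and a log2 ratio of 0.38, against a median of 0.06 over all genes tested.

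The sign of the *Egfr* difference in SAG-treated cells was opposite to that in the *Ihh*-deleted tissue. *Hbegf* had means of 6.93 FPKM in DMSO and 5.47 in SAG, a log2 ratio of -0.34, and *Nrg1* 1.97 and 1.58. With median-of-ratios scaling the log2 ratio was 0.32 for *Egfr* and -0.40 for *Hbegf*. *Ereg*, close to 0 in tissue, was at 1.81 and 1.74 FPKM in these cultures, and *Erbb2* at 5.53 and 6.44. *Btc* (0.527 and 0.463), *Tgfa* (0.168 and 0.183) and *Areg* (0.0327 and 0.133) were under 1 FPKM. *Erbb3* was at 0.00533 and 0.0157, while the Schwann cell markers summed to 7.41 and 7.16 FPKM. EC markers summed to 0.623 and 0.671 FPKM, so *Hbegf* was read in these cultures with EC markers near 0.

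Of 51 pathway genes tested in the cultures, 2 were higher and 2 lower after SAG, beside 1.3% and 2.37% of all genes tested. *Spry1* had 22.8 FPKM in DMSO and 39.7 in SAG, and *Rhbdf2*, a regulator of the sheddase ADAM17, 1.07 and 1.68. *Errfi1* had 16.0 and 9.88, and *Adam12*, which encodes another shedding protease, 6.23 and 3.23. Of the 3 pathway genes higher in *Ihh*-deleted tissue, *Errfi1* was thus lower with SAG, *Dusp5* had 2.00 FPKM in DMSO and 2.97 in SAG, a ratio of 1.49 that did not reach 1.5-fold, and *Spry4* had 3.09 and 2.97.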

How the data were processed

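The members and gene lists were chosen with earlier results of these data known. Single-cell counts were UMI counts per gene and cell that the authors made with Cell Ranger on mm10, and clusters (Seurat 2.1) were theirs, as deposited, along with each cell's mitochondrial fraction, which was deposited by the authors and only read. No cell was removed here and no doublet caller was run. Cells with both *Xist* and *Ddx3y* UMIs, taken as mixed-sex doublets, were left out as an alternative. Bulk values were the authors' mean FPKM per group (STAR 2.4.0f1, Cufflinks 2.0.2). The column named Control was read as DMSO. Columns with the authors' own comparisons (fold changes, adjusted p) were in those tables and were left out. Genes with no row in a table were not analysed here, and the depth of the bulk libraries is unknown.

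UMIs were summed per cluster and library, with exact Poisson and Clopper-Pearson intervals at 95% (scipy 1.17.1). Strain ratios used the exact conditional binomial interval. The thinned levels drew 1700 UMIs per cell. Bulk ratios used a pseudocount of 0.1 and a minimum of 1 FPKM. The scripts were tested on simulated data. All members and other family genes are named, pathway genes where past 1.5-fold, and otherwise genes chosen after their values were seen. Leaving out cells with EC-marker UMIs and the 50-UMI minimum were chosen after seeing the data. Alternatives were other folds, minimums, pseudocounts, median-of-ratios scaling, thinning and means over cells. One gene most like *Erbb3* is not reported here.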

Additional observations from a re-analysis of the deposited data

How the results depend on the processing

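No paired analysis was possible because the bulk tables hold 1 mean per group and the single-cell data 1 library per strain, and for the same reason no replicate could be left out. Of 33 log2 ratios of members recomputed with another pseudocount or scaling, all 33 stayed on their side of 1.5-fold, and median-of-ratios scaling moved the median gene by 0.04 after *Ihh* deletion and by -0.06 after SAG. The number of members past the fold after *Ihh* deletion was 1 and became 0 at 2-fold, 2 at a lower fold limit (*Egfr* and *Hbegf*) and 3 with a minimum of 0.1 FPKM or with none (*Egfr*, *Areg* and *Ereg*). After SAG it was 0 and became 2 at a lower fold limit (*Egfr* and *Hbegf*) and 1 with a minimum of 0.1 FPKM or with none (*Areg*). The cluster with the highest level in B6129PF1/J was the same in C57BL/6J for 6 of 8 members. Within B6129PF1/J it was kept by 5 of 8 members when clusters of under 50 cells were left out, since *Erbb2*, *Btc* and *Tgfa* peaked in small clusters on 2 UMIs each. The strain ratio of *Hbegf* in Kdr-high ECs was 1.14 and became 1.31 in thinned cells and 1.23 as a mean over cells. Without the log scale, 1 of the 3 genes most like *Hbegf* (*Akap2*) was named again, and the lower UMI minimum named 15 genes for 5 members. Of 80 recomputed levels, 75 stayed within their counting interval and the other 5 were lower: *Hbegf* in C57BL/6J Kdr-high ECs at 9.14 thinned and 9.52 as a mean over cells, and *Areg* and *Nrg1* at 0 in C57BL/6J. The sparse members are limited by depth.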
